A study of Mus musculus with 9 samples.

Results

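The genes described are 9 interferon-induced genes of the mouse, Ifit1, Ifit2, Ifit3, Ifit3b, Isg15, Bst2, Irf7, Irf9 and Mndal, out of 19505 named genes on the array. They were picked by symbol and had 1 probe set each. Their RNA was read from hippocampi of 9 male mice (C57BL6 in the labels, C57BL/6NCrSlc in the study's methods) with Affymetrix Mouse Clariom S arrays, 1 array per mouse, and the values are log2 signals as normalized by the authors. The Old D group held mice 2, 6 and 11 (adult, 47 weeks), the Old group mice 3, 8 and 18 (adult, 47 weeks) and the Young group mice 7, 19 and 20 (11 weeks). The labels list no genetic change and no treatment for any group. The labels do not explain the suffix D, which was read as the study's adult mice with cognitive decline, the 3 lowest scorers in a Y-maze and an open field test. The Old group was read as its adult mice with normal cognition, the 3 highest scorers. In each Old array, 71.7% of the values (15915 of 22206) lie on a straight line, with a gap of at most 5.02e-10, and were not used as measurements. Mndal and Isg15 were therefore compared in all 3 groups, and the other 7 genes in Old D and Young mice only.

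Type I interferons are cytokines that a cell releases when it senses foreign or misplaced nucleic acid. They bind the receptor of Ifnar1 and Ifnar2, which signals through the kinases Jak1 and Tyk2. A complex that holds Irf9 then binds a short DNA element, the interferon-stimulated response element, in front of its target genes. In the brain, microglia, endothelium and choroid plexus are known to carry interferon responses, and such responses have been linked with ageing.

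The core of this element was searched for in RefSeq's promoter windows (GRCm38.p6) as TTTC, any 2 bases and TTTC, and as its reverse complement with GAAA in both places, over the 250 bases before each annotated start. The search covered both strands and counted overlapping matches. It was found before 6 of the 9 genes, in 7 of their 12 windows, against 936 of 27025 genes (3.46%) and 978 of 32851 windows (2.98%) in the whole table. The stretches with matches are shown since they are the sequence by which these genes are known to share a regulator, with the matched bases in capitals. Each is written in the gene's own direction. The Ifit3b stretch is chr19:34607749-34607882 on the plus strand and that of Ifit3 is chr19:34583353-34583486 on the plus strand.
Ifit3b: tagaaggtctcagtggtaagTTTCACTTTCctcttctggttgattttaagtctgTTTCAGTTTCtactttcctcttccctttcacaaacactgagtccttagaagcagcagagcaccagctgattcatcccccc
Ifit3: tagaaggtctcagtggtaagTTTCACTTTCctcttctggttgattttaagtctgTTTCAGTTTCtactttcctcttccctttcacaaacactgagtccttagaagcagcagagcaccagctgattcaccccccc
Over their 250 bases the Ifit3b and Ifit3 windows aligned with 217 identical bases, 1 mismatch and 6 gap bases (96.9% of 224 columns), and the first 127 of the 134 bases shown were the same in both. Counted from the annotated start, the matches began at positions -188 and -154 in Ifit3b and at -156 and -122 in Ifit3. Those of Ifit1 began at -104 and -85, in chr19:34640765-34640833 on the plus strand.
Ifit1: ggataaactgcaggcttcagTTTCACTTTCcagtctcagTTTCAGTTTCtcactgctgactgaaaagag
Isg15 had 3 overlapping matches, in chr4:156200855-156200916 on the minus strand, and Bst2 had 2 overlapping ones, in chr8:71537567-71537622 on the minus strand. Mndal had 1 match before each of its 2 annotated starts, and the one before the first start is shown, in chr1:173880194-173880243 on the minus strand.
Isg15: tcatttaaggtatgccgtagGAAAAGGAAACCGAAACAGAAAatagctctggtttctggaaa
Bst2: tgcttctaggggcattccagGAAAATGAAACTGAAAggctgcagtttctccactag
Mndal: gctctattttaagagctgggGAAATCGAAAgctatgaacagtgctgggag
Ifit2, Irf7 and Irf9 had 0 matches, which says only that these letters are not in the windows searched.

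**Figure D1:**
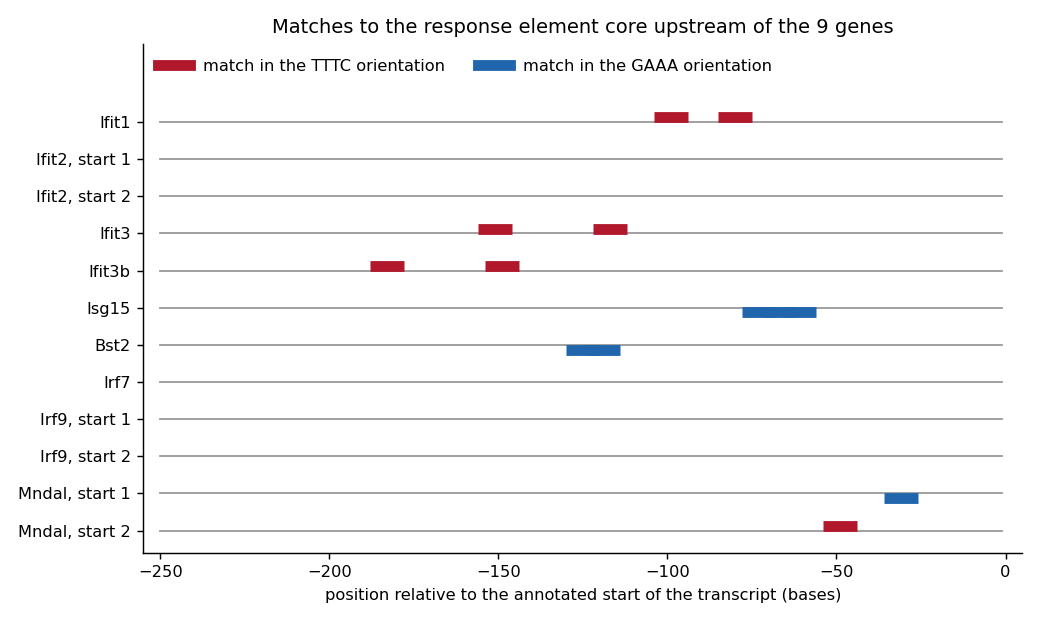
Matches to the core of the interferon-stimulated response element in the 250 bases before each annotated start of the 9 genes. The x axis gives the position in bases before the start, each line is 1 window, red and blue bars mark the 2 orientations, and overlapping matches of Isg15 and Bst2 run together. Ifit3b and Ifit3 each hold 2 matches, and Ifit2, Irf7 and Irf9 hold 0.

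The arrays had a median log2 signal of 6.65 to 6.71 in Old D mice and 6.62 to 6.68 in Young mice, over all 22206 probe sets. In Old mice it was 6.94 to 7 over the 6291 measured probe sets, a part of the array, so the levels are not comparable. Over those 6291 the median difference was 0.01 between Old D and Old mice and -0.01 between Old and Young mice. The hippocampal marker Camk2a, a kinase of excitatory synapses, was at 18.29 to 18.75 in Old D mice and 18.41 to 18.72 in Young mice. It differed by -0.03, one of the smaller differences among 13 genes of hippocampal neurons, whose median was -0.19. The mean log2 signal of these 13 genes was 11.23, 11.31 and 10.93 in Old D mice 2, 6 and 11. In Young mice 7, 19 and 20 it was 11.69, 11.13 and 11.34. Markers of tissues beside the hippocampus stood apart in single mice. The mean log2 signal of 15 choroid plexus genes was 9.83 in Old D mouse 11 and 10.18 in Young mouse 19, and 5.70 to 6.32 in the other Old D and Young mice. That of 12 thalamus genes was 11.03 in Old D mouse 11 and 8.04 to 8.77 in the other Old D and Young mice. For several genes results are therefore also given without Young mouse 19 and Old D mouse 11. The deposited values carry no call of detection above background. In bulk tissue, fewer cells of a type and less RNA per cell cannot be told apart.

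In Old D against Young mice, Ifit3b was higher and 7 of the other genes did not reach the threshold of the study, which asks for more than 1.5-fold and for p below 0.05 before adjustment. Mndal was within 1.5-fold and is given no test, since its Old D values led to its choice. That is 1 of 9, where 1.70% of 22206 probe sets passed (377) and 0.941% passed on the higher side (209). The median difference of the 9 genes was -0.01 on the log2 scale, with 4 genes higher and 5 lower by mean, against a median of 0.00 over all probe sets, of which 50.5% were higher. After adjustment 0 probe sets of the array (0%) had p below 0.05 in limma, as with the methods' t-test (0), and 1267 (5.71%) had it before adjustment in limma. The 9 genes were named with results of these mice known, so their values describe these samples and are not independent evidence.

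Ifit3b encodes an Ifit protein, a family of antiviral proteins that bind RNA and the translation machinery. Its log2 signal was 8.39, 8.53 and 8.58 in Old D mice 2, 6 and 11, against 7.49, 7.69 and 7.65 in Young mice 7, 19 and 20. The lowest Old D mouse lay above the highest Young mouse, a separation found in 10.4% of all probe sets in either direction. The means were 8.50 ± 0.10 in Old D mice and 7.61 ± 0.11 in Young mice (SD, n = 3 each), a log2 difference of 0.89 (standard error 0.14), or 1.85-fold. The p was 2.10e-04 in limma and 0.729 after Benjamini-Hochberg adjustment over all probe sets. An exact two-sided permutation test gave p = 0.1, the smallest that 3 mice against 3 allow. Ifit3b is among the 9 genes named with results of these mice known, so its p-values are not independent evidence. The difference was 0.83 to 0.94 with each mouse left out in turn, and 0.89 (limma, unadjusted p = 0.00268) without Young mouse 19 and Old D mouse 11.

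Ifit3 is the close copy of Ifit3b and is known from human cells to stabilise complexes of IFIT proteins. Ifit3 had log2 signals of 7.81, 8.12 and 8.79 in Old D mice 2, 6 and 11, against 7.90, 8.02 and 7.76 in Young mice 7, 19 and 20. The groups overlapped, since Old D mouse 2 lay within the Young range, and Old D mouse 11 was the highest of all. The difference was 0.35 (standard error 0.25). It was 0.07 without Old D mouse 11, 0.56 without Old D mouse 2 (limma, unadjusted p = 0.0453, short of the fold) and 0.13 without Old D mouse 11 and Young mouse 19. Probes for near-identical copies can share signal, so Ifit3b and Ifit3 are uncertain as separate readings. Nothing was tested of the difference between these 2 genes.

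Ifit1 recognises RNA ends that lack the methylation of the host's caps. Its log2 signal was 5.08, 4.65 and 4.73 in Old D mice 2, 6 and 11, against 4.48, 4.89 and 4.07 in Young mice 7, 19 and 20. Young mouse 19 lay above Old D mice 6 and 11, and the difference was 0.34 (standard error 0.23). It was 0.14 without Young mouse 20, 0.21 without Old D mouse 2 and 0.55 without Young mouse 19, none past the study's threshold. It was 0.59 without Young mouse 19 and Old D mouse 11, past the study's threshold (limma, unadjusted p = 0.0484). Ifit2, another antiviral protein of the family, was at 6.28, 6.61 and 6.49 in Old D mice, against 6.51, 5.86 and 7.04 in Young mice. All Old D mice lay inside the Young range, with a difference of -0.01 (standard error 0.28). The gene table places Ifit2, Ifit3, Ifit3b and Ifit1 in this order on chromosome 19, with Ifit1bl1 and Ifit1bl2 among them.

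**Figure D2:**
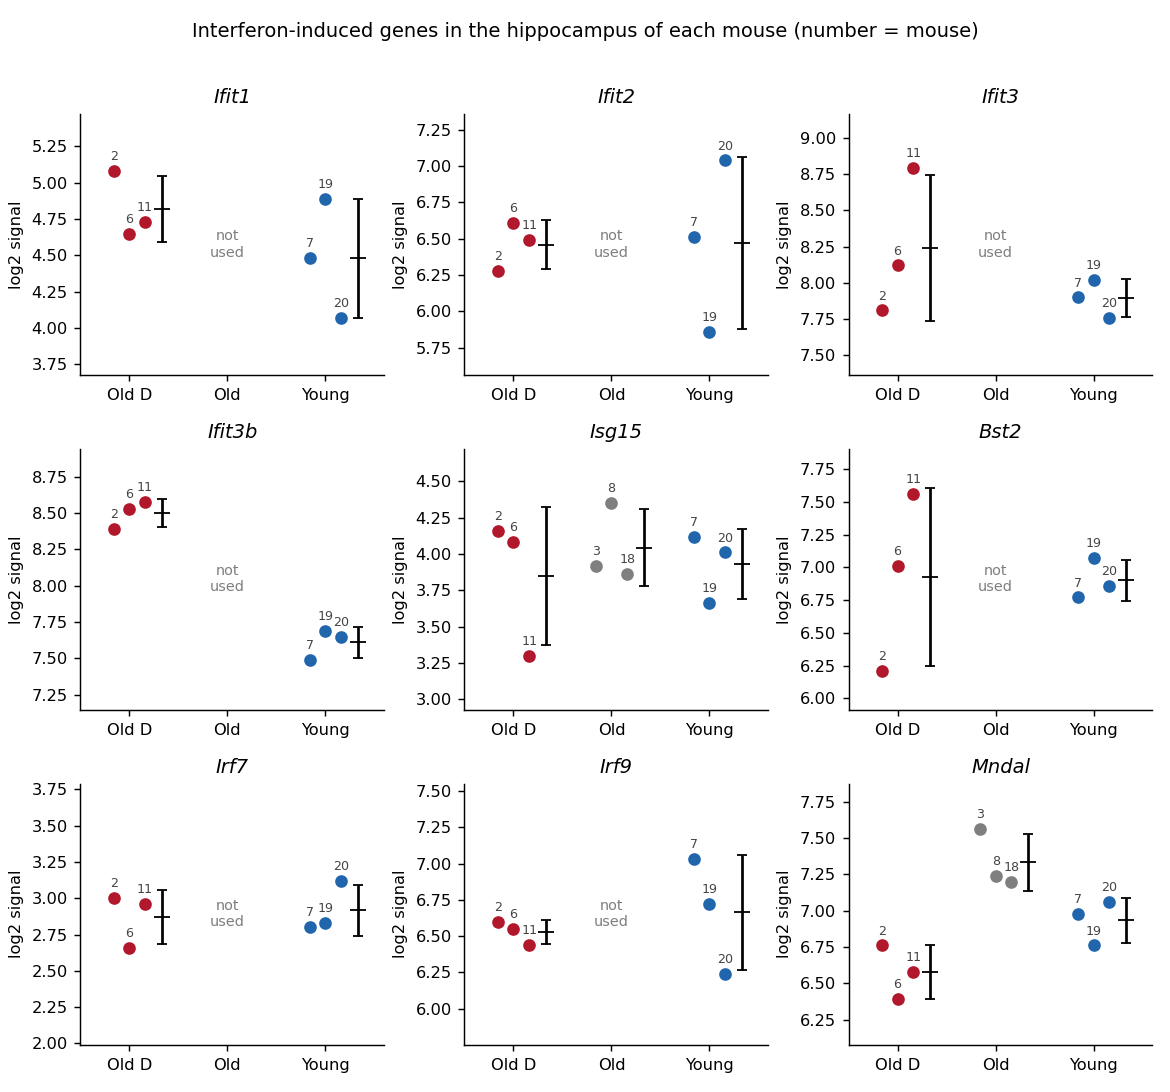
Log2 signal of the 9 genes in each mouse (number beside each point), by group, with the mean and SD of 3 mice as a black bar. The y axes differ in range, and "not used" marks genes whose Old values lie on the filled line. In Ifit3b all Old D mice (8.39 to 8.58) lie above all Young mice (7.49 to 7.69), and in Mndal the Old mice (7.20 to 7.56) lie above both other groups.

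Isg15 encodes a small ubiquitin-like protein that is attached to other proteins in infected cells. Its log2 signal was 4.16, 4.08 and 3.30 in Old D mice 2, 6 and 11, then 3.92, 4.35 and 3.86 in Old mice 3, 8 and 18, against 4.12, 3.66 and 4.01 in Young mice 7, 19 and 20. The 3 groups overlapped, with Old D mouse 11 the lowest of the 9. The differences were -0.08 between Old D and Young, -0.20 between Old D and Old, and 0.11 between Old and Young mice (standard error 0.24 for each). Old against Young was not past the study's threshold for Isg15 (adjusted p = 0.999 from limma), the one gene tested there, where 1.29% of 6291 probe sets passed. Without Old D mouse 11 the Old D against Young difference was 0.19 and the Old D against Old difference 0.08, both with the sign turned.

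Bst2, also called tetherin, holds budding virus particles at the cell surface. It had log2 signals of 6.21, 7.01 and 7.56 in Old D mice 2, 6 and 11, against 6.77, 7.07 and 6.86 in Young mice 7, 19 and 20. The Old D mice thus included both the lowest and the highest of the 6, with an SD of 0.68 in Old D mice and 0.15 in Young mice. The difference was 0.03 (standard error 0.31), and -0.29 without Old D mouse 11. This mouse had the high choroid plexus and thalamus signals given above and the highest value of Bst2 and of Ifit3. The part of those tissues in these values was not tested.

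The pair of transcription factors did not separate the groups. Irf7, which drives the second wave of interferon genes, was at 3, 2.66 and 2.96 in Old D mice, against 2.80, 2.83 and 3.12 in Young mice, where the lowest values on these arrays were 1.89 to 1.97. Its difference was -0.04 (standard error 0.17). Irf9, the DNA-binding part of the complex described above, was at 6.60, 6.55 and 6.44 in Old D mice 2, 6 and 11, against 7.03, 6.72 and 6.24 in Young mice 7, 19 and 20. All Old D mice lay inside the Young range, and the difference was -0.13 (standard error 0.21). Adjusted p-values in limma were 0.889 to 0.996 for Ifit1, Ifit2, Ifit3, Isg15, Bst2, Irf7 and Irf9 in Old D against Young mice.

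**Figure D3:**
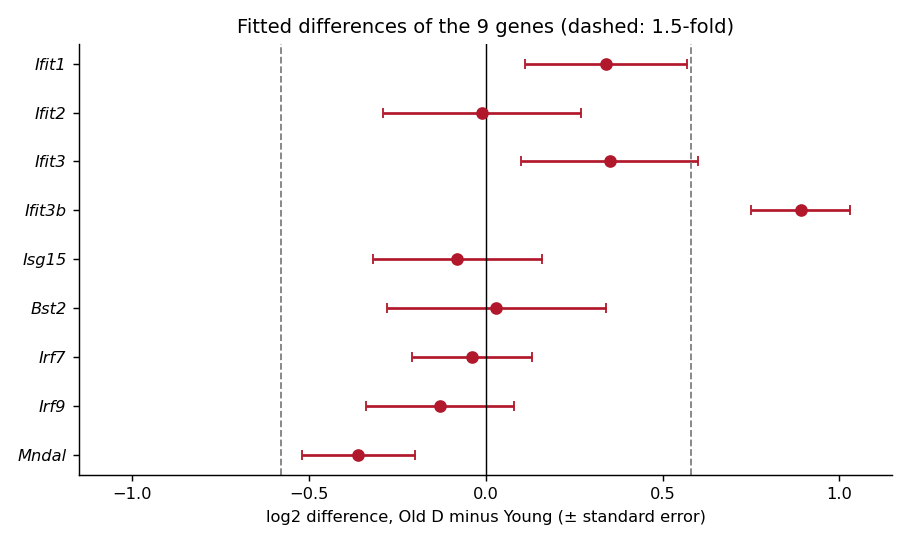
Log2 difference between Old D and Young mice for the 9 genes, as fitted in limma, with its standard error (3 mice per group). Dashed lines mark a fold of 1.5 in either direction. Ifit3b, at 0.89, is the 1 gene beyond them, and Mndal, at -0.36, is the lowest.

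Mndal belongs to the p200 family, interferon-inducible proteins of the nucleus and cytoplasm, several of which bind DNA. Its log2 signal was 6.76, 6.39 and 6.58 in Old D mice 2, 6 and 11, then 7.56, 7.24 and 7.20 in Old mice 3, 8 and 18, against 6.98, 6.76 and 7.06 in Young mice 7, 19 and 20. Every Old mouse lay above every Young and every Old D mouse, while Old D mouse 2 and Young mouse 19 had the same value. The means were 6.58 ± 0.19 in Old D, 7.33 ± 0.20 in Old and 6.93 ± 0.16 in Young mice (SD, n = 3 each). Mndal differed by -0.76 between Old D and Old mice (standard error 0.16), 0.59 of the Old level, and by 0.40 between Old and Young and -0.36 between Old D and Young mice. It was taken up for its Old D and Old values, so all 3 differences are given as a description with no test. In Old D against Old mice, 2.56% of 6291 probe sets differed by over 1.5-fold and in 5.34% every Old D mouse was lower, and nothing is read from 1 of 2 genes beside that. In Old against Young mice every Old mouse was higher in 4.40% of probe sets. Left-out mice gave -0.85 to -0.64 for Old D against Old. All 3 comparisons share groups, so they are not separate observations. Beside Mndal, the choroid plexus markers measured in Old had a median difference of 0.76 between Old D and Old mice (3 genes) and the thalamus markers 0.87 (4 genes). It was -0.01 for the microglial markers (6 genes) and -0.28 for the hippocampal neuron markers (6 genes). Old D mouse 11 stood apart. Centred on the mean of the 9 mice, the choroid plexus markers were at -2.03, -1.78 and 3.99 in Old D mice 2, 6 and 11. They were at 0.31, -1.89 and -0.54 in Old mice 3, 8 and 18. The thalamus markers were at -0.10, -0.55 and 2.07 in these Old D mice, and at -0.26, -0.46 and 0.11 in these Old mice. The part of all these markers in the values of Mndal was not tested.

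Of the other p200 genes, 8 matched a probe set, all of them measured in the 3 groups. Ifi203, Ifi202b and Ifi205 were not analysed here. Ifi211 had log2 signals of 3.85, 3.88 and 3.83 in Old D mice 2, 6 and 11, then 4.86, 4.71 and 3.97 in Old mice 3, 8 and 18, against 4.56, 5.16 and 3.98 in Young mice 7, 19 and 20. Ifi211 and Mndal had no Old D mouse above an Old mouse, but in Ifi211 the Old and Young mice overlapped. Every Old D mouse was lower than every Old mouse in 5.34% of 6291 probe sets. Old D differed from Young mice by -0.71 in Ifi211 (standard error 0.30, adjusted p = 0.860 from limma), past the study's threshold in limma, as were 1.70% of all probe sets. Under the one-way model without moderation Ifi211 was not past the threshold (unadjusted p = 0.0932). From Old mice the difference in Ifi211 was -0.66, not past it (limma, unadjusted p = 0.0503). Ifi214 was at 5.10, 6.23 and 4.64 in Old D mice 2, 6 and 11, against 4.49, 4.83 and 4.32 in Young mice 7, 19 and 20. In Ifi214 the difference of 0.78 (standard error 0.33) was past the threshold in limma, but was 0.32 without Old D mouse 6. Ifi214 was also not past the threshold under the one-way model without moderation (unadjusted p = 0.106). The call for Ifi211 was lost without Old D mouse 2, 6 or 11 (-0.71, -0.73 and -0.70) and without Young mouse 7 or 19 (-0.72 and -0.42). Without Young mouse 19 and Old D mouse 11 together, Ifi211 was at -0.40, short of the fold, and Ifi214 at 1.26. Ifi214 also lost its call without Old mouse 3, 8 or 18 (0.78 each, since they enter the estimate of the spread) and without Young mouse 7 or 20 (0.75 and 0.66). By mean, 5 genes of the family were higher and 3 lower in Old D against Young mice (median 0.11), and 6 and 2 in Old D against Old mice (median 0.16). Mndal is not among these 8. The p200 genes lie together on chromosome 1 and resemble each other, so probes may share signal.

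**Figure D4:**
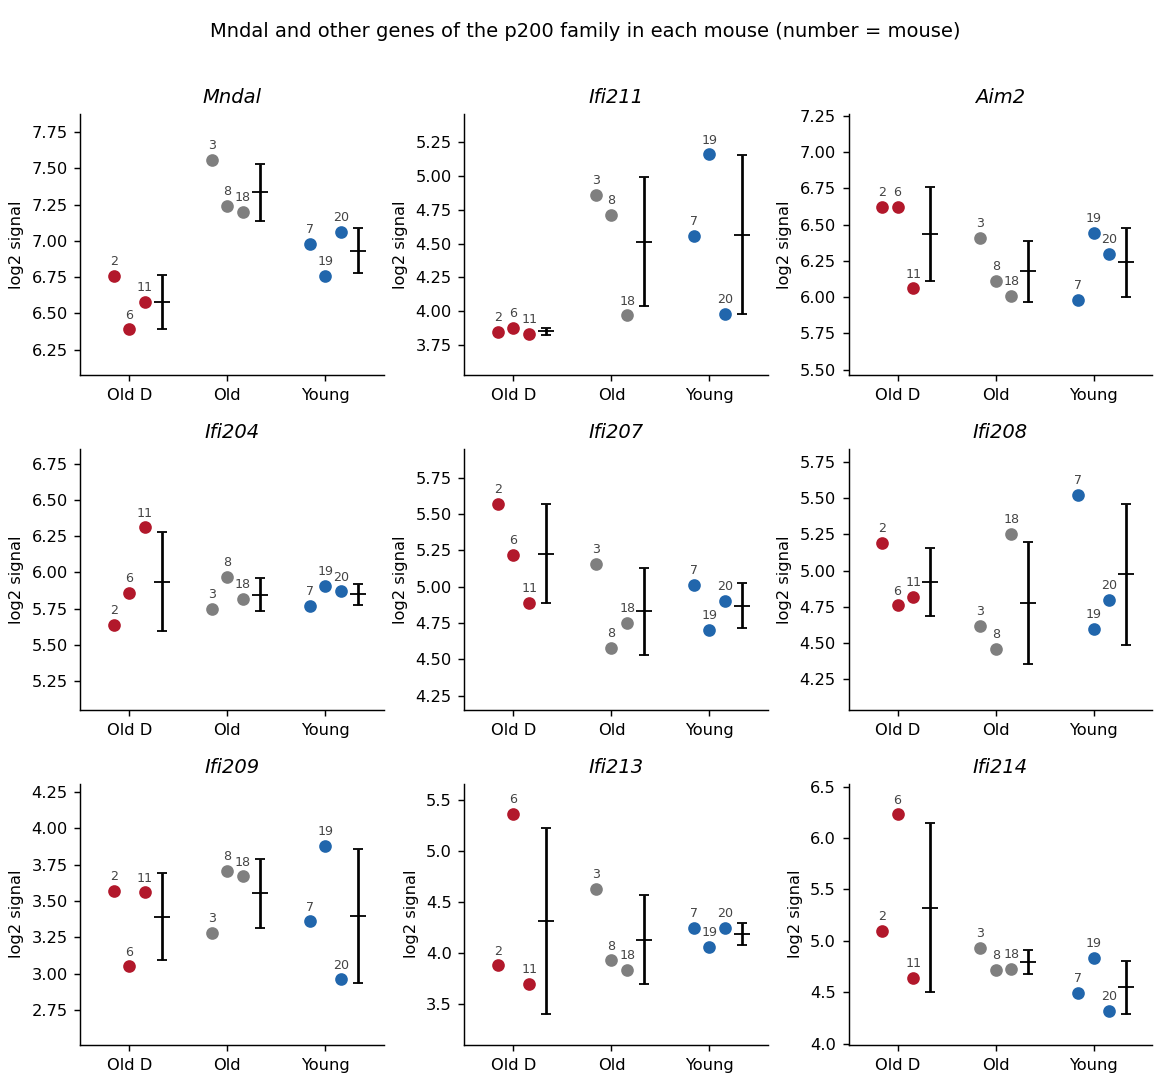
Log2 signal of Mndal and 8 other p200 genes in each mouse (number beside each point), by group, with the mean and SD of 3 mice as a black bar. The y axes differ in range. Old D mice are the lowest group in Mndal (6.39 to 6.76) and in Ifi211 (3.83 to 3.88), and Ifi214 has Old D mouse 6 at 6.23.

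The wider pathway was read from 9 lists, 141 genes that matched a probe set, from ligands to targets. In Old D against Young mice 2 were higher and 2 lower past the study's threshold (2.84%, beside 1.70% of all probe sets), 10 had an unadjusted p under 0.05 (5.71% of all probe sets did) and 0 an adjusted p under 0.05 in limma. The sides were 79 higher and 62 lower, with a median of 0.03. Besides Ifi211 and Ifi214 these were Trim30a and Slfn8. Under the one-way model without moderation and under the methods' t-test, 0 of these 4 genes passed. Trim30a, a ubiquitin ligase of the Trim family, was at 4.85, 4.76 and 4.70 in Old D mice, against 4.31, 4.64 and 3.58 in Young mice, a difference of 0.59 (standard error 0.26). The groups did not overlap in Trim30a, as in 10.4% of all probe sets in either direction, but its difference was 0.30 without Young mouse 20. Slfn8, a schlafen gene, was at 4.46, 4.68 and 3.87 in Old D mice, against 4.83, 5 and 5.10 in Young mice, a difference of -0.64 (standard error 0.22). Slfn8 was at -0.41 without Old D mouse 11 and -0.58 without Young mouse 20, both short of the threshold. Without Young mouse 19 and Old D mouse 11 together, Slfn8 was at -0.39, short of the fold, and Trim30a at 0.86. Trim30a was also short of it without Old D mouse 2, 6 or 11 (0.55, 0.60 and 0.63) and without Young mouse 7 (0.66). The count of 4 was 2 without Young mouse 20.

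Among the ligands, 10 of 19 genes were higher by mean in Old D against Young mice (median 0.01) and 0 passed the threshold. Ifng, the type II interferon, was at 5.82, 5.62 and 5.68 in Old D mice, against 5.51, 4.97 and 5.36 in Young mice, with no overlap and a difference of 0.43 (standard error 0.18), short of the fold. Receptors had 3 of 6 genes on each side (median 0.01). Of 13 Jak, Stat and Irf genes, 7 were on the higher side (median 0.03), and 0 passed. Irf3, which switches on interferon genes after sensing, was at 7.18, 7.35 and 7.63 in Old D mice, against 7.07, 6.96 and 6.78 in Young mice. The groups did not overlap in Irf3, with a difference of 0.45 (standard error 0.17), also short of the fold. Of all probe sets 10.4% had no overlap between Old D and Young mice, in either direction. Nothing is read about the pathway from such separations in single genes.

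Sensors of nucleic acid and their adaptors had 8 of 16 genes on each side (median 0.00), with Tlr7, a receptor for single-stranded RNA, at -0.38 (standard error 0.17). In Tlr7 the Old D mice had 8.51, 8.16 and 8.21, against 8.59, 8.52 and 8.91 in Young mice. Of 6 feedback inhibitors, 5 were on the higher side (median 0.25), with the phosphatase gene Ptpn6 at 0.42 (standard error 0.15), and 0 passed. The other effectors counted 28 of 46 on the higher side (median 0.03). Guanylate binding proteins and related GTPases, many of them induced by Ifng, counted 7 of 12 on the lower side (median -0.14), with 0 past the threshold. Among them Gbp2 was at 5.82, 5.65 and 5.83 in Old D mice, then 6.43, 6.49 and 5.95 in Old mice, against 5.97, 6.43 and 6.46 in Young mice. No Old D mouse reached the lowest Old or Young mouse in Gbp2, and its difference was -0.52 from either group (standard error 0.19), short of the fold. Every Old D mouse was lower than every Young mouse in 5.21% of 22206 probe sets, and than every Old mouse in 5.34% of 6291. Both comparisons use the same Old D mice, so they are not separate observations. Gbp9 was at -0.45 without passing. Antigen presentation genes had 9 of 16 on the higher side (median 0.04), and 0 passed.

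**Figure D5:**
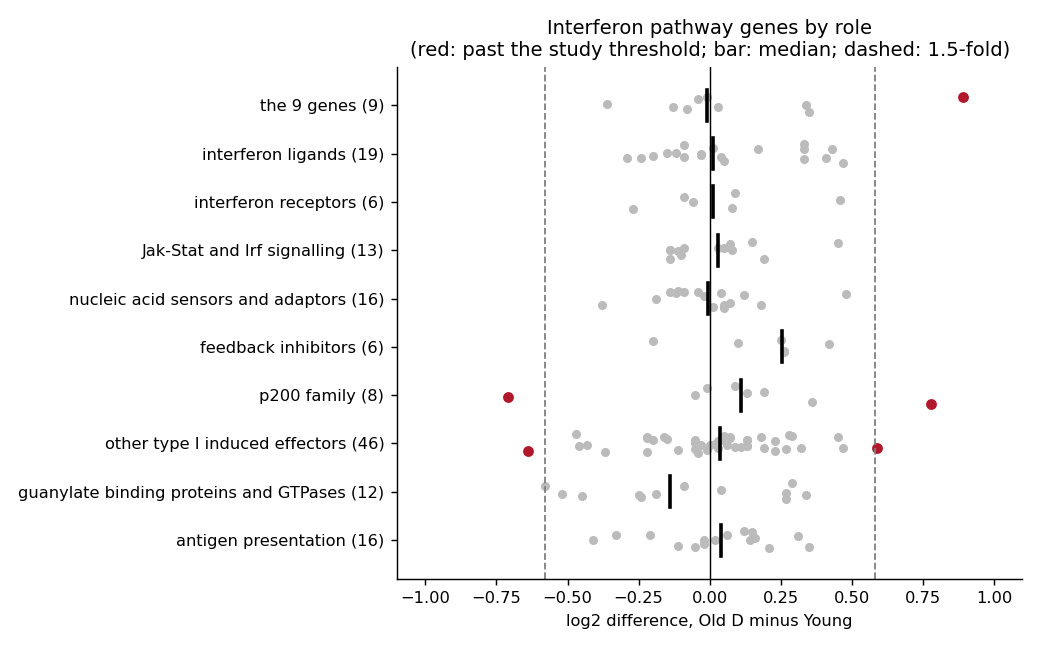
Log2 differences between Old D and Young mice for the 9 genes and for 141 further genes of the interferon pathway by role, with the number of genes in brackets. Each point is a gene, red points passed the study's threshold in limma, black bars are medians and dashed lines mark a fold of 1.5. Medians lie between -0.14 and 0.25, and 4 of the further genes are red.

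Against Old mice 45 of the 141 genes could be read, and 2 passed the study's threshold in Old D (4.44%, beside 1.54% of 6291 probe sets), 4 had an unadjusted p under 0.05 (5.33% of the 6291 did) and 0 an adjusted p under 0.05 in limma. Both were interferon alpha genes with opposite directions. Ifna1 was at 6.40, 6.90 and 5.93 in Old D mice 2, 6 and 11, against 5.98, 5.66 and 5.02 in Old mice 3, 8 and 18, a difference of 0.86 (standard error 0.29). Ifna7 was at 4.96, 4.56 and 4.39 in Old D mice, against 5.10, 4.94 and 5.69 in Old mice, a difference of -0.61 (standard error 0.22). In both genes the groups overlapped. Without Old mouse 18 neither passed (0.59 for Ifna1 and -0.38 for Ifna7), nor without Old D mouse 6 (0.61 and -0.57), and Ifna7 also failed without Old D mouse 11 (-0.48). Neither passed under the methods' t-test, and Ifna7 passed neither without moderation nor with array weights (-0.57). In Old against Young mice Ifna7 was the 1 gene of 45 past the threshold (0.64, standard error 0.22), which it was not without Old mouse 18 (0.42) or Young mouse 20 (0.55), nor under the methods' t-test. The alpha genes are close copies and share the Old mice across these comparisons, and their probes may share signal.

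Markers of cell types that the tissue piece could hold were read on the same arrays. In Old D against Young mice the median difference was 0.14 for 14 microglial genes (11 on the higher side), 0.01 for 12 endothelial genes, 0.10 for 8 astrocyte genes, 0.00 for 14 lymphocyte and macrophage genes and -0.15 for Alas2, the 1 red blood cell gene matched. It was -0.19 for 13 genes of hippocampal neurons, -0.36 for choroid plexus and 0.74 for thalamus, and 0 genes of these lists passed the threshold. Of the 13 neuron genes 0 were higher by mean, beside 50.5% of all probe sets. Their mean log2 signal overlapped between the groups, at 10.93 to 11.31 in Old D mice and 11.13 to 11.69 in Young mice. The mean log2 signal of the microglial list was 8.52 to 8.62 in Old D mice and 8.34 to 8.64 in Young mice. For the endothelial list it was 9.29 to 9.41 in Old D mice and 9.25 to 9.37 in Young mice. The ranges overlapped in both lists. Of the 14 microglial genes, Itgam (0.46) and C1qb (0.40) had the largest differences on the higher side. They were the 2 with an unadjusted p under 0.05 in limma (0.0469 and 0.0493), as had 5.71% of all probe sets. Both overlapped between the groups and were short of the fold. Ctss (0.23) and Trem2 (0.20) were higher in every Old D than in every Young mouse, as were 5.22% of all probe sets. On the lower side were 3 of the 14, with Tyrobp at -0.52. In the other marker lists Lyve1 (0.30) was higher and Cldn5 (-0.39) lower in every Old D than in every Young mouse. Against Old mice 2 of the 14 lymphocyte and macrophage genes could be read. Mrc1 differed by 0.68 (standard error 0.22) and passed the threshold, as 1.54% of 6291 probe sets did, and Pf4 differed by -0.36 (standard error 0.22) and did not. From Young mice the difference in Mrc1 was 0.56 (limma, unadjusted p = 0.0269), with overlap and short of the fold, and in Pf4 -0.38. The part of these cells in the values of the 9 genes was not tested.

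The 9 genes were also compared with each other from mouse to mouse. Over the 6 Old D and Young arrays, 14 of 36 pairs had a positive Pearson r and 22 a negative one, with a median of -0.14 and a range of -0.86 to 0.82. Ifit3 and Ifit3b had r = 0.59, Ifit3 and Bst2 0.82, Ifit1 and Ifit2 -0.83, Ifit3 and Isg15 -0.86, and Ifit3b and Mndal -0.84. These are descriptions over 6 arrays that share 1 normalization. They hold the group difference as well as the spread within groups. The mean of the 9 genes, each centred on its own mean, was 0.00, 0.03 and 0.13 in Old D mice 2, 6 and 11, against -0.02, -0.09 and -0.05 in Young mice 7, 19 and 20. Across all other named genes the patterns most like this mean were those of Sgpp2 (r = 0.990), Olfr1163 (0.988), Creg1 (0.987), Lrrc43 (0.984) and Gm3448 (0.984). Most like Ifit3b were Fundc1 (0.998), Dsg1c (0.988) and Marveld1 (0.978), most like Ifit3 were Zfp804a (0.997), Tmem88 (0.992) and Mrgpre (0.989), and most like Mndal were Imp3 (0.995), Olfr921 (0.994) and Rasl11b (0.989). Each is the top of a search through all other named genes over 6 arrays, where very high r values can arise without a link. Nothing is read from them about shared regulation.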

How the data were processed

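Hippocampal RNA of 9 mice was read on Clariom S arrays after labelling with the GeneChip WT Plus kit. The deposited values are log2 signals of probe sets, which the authors normalized with the Transcriptome Analysis Console. How background was corrected and probes were summarised, and on which genome build, is not given in the sources used here. Values of over 2 decimals in the Old columns lie on a line and were set to missing. Of 22206 probe sets, 19572 had 1 gene symbol, 0 several and 2634 none, and all 19572 matched the GRCm38.p6 gene table by Entrez ID, used for names. Where a gene had several probe sets, that of the highest mean stood for it.

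All 9 mice entered a single linear model with limma 3.58.1 under R 4.3.3, with empirical Bayes moderation (prior degrees of freedom 4.22; residual 6, or 4 without Old), and Benjamini-Hochberg adjustment ran over every probe set of a comparison. The study's methods name a one-way ANOVA. The fit was tested on simulated data. Promoter windows came from RefSeq (GRCm38.p6) and were aligned with Biopython 1.88; figures used matplotlib 3.10.9.

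The 9 genes, and 17 lists of pathway and cell type genes (257 entries, 231 matched), were chosen with earlier results of these data known. Named are the 9 genes, up to 4 genes per list with the smallest p in Old D against Young or Old mice, and the genes most like them in pattern. Camk2a and Trem2 were named after their values were seen. Alternative settings included fitting 2 groups alone, the t-test of the methods, no moderation, a robust trended prior, array weights, quantile normalization, median centring, low-value filters, averaging a gene's probe sets, folds of 1.2 and 2, leaving out each mouse, and leaving out Young mouse 19 and Old D mouse 11. Each mouse has 1 array and no batch is named, and 3 arrays per group limit the precision of every value.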

Additional observations from a re-analysis of the deposited data

How the results depend on the processing

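Ifit3b stayed past the study's threshold in 21 of 22 alternatives (0.83 to 0.94), the exception being a fold of 2, under which 0 of the 9 genes and 0 of the 141 pathway genes passed in Old D against Young mice and 0 of the 2 genes measured in Old were past the fold in Old D against Old mice. Its adjusted p was 0.350 to 0.975 across them. Without Young mouse 19 and Old D mouse 11, 2 of the 9 genes passed, Ifit3b and Ifit1. The median of the 9 genes was -0.09 to 0.08 with single mice left out, and 0.19 over the genes above the median level of the array, a filter that leaves fewer genes. The 4 pathway genes past the threshold were 0 under the methods' t-test and under the one-way model without moderation. They were 10 at a fold of 1.2 and 2 to 4 with single mice left out. At a log2 value of at least 6 and above the median level the count was also 0, but these filters left out all 4 genes. Their mean log2 signals were low, at 3.85 to 5.32 in Old D and Young mice. The whole-array count of 377 for Old D against Young was 184 under the methods' t-test, 190 without moderation, 158 and 139 under the 2 filters on low values, 373 to 677 with single mice left out and 835 without Young mouse 19 and Old D mouse 11.

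Small differences changed sign when 1 mouse was left out. Over these left-out mice the lowest or highest values at the other end were -0.31 for Ifit2, -0.24 for Isg15, -0.11 for Irf7, -0.34 for Irf9 and 0.38 for Bst2 in Old D against Young mice, and 0.21 for Isg15 in Old against Young mice. In Old D against Young mice Ifit2 was at 0.08 without Old D mouse 2, 0.01 without Young mouse 7 and 0.28 without Young mouse 20, Irf7 at 0.06 without Old D mouse 6 or Young mouse 20, and Irf9 at 0.05 without Young mouse 7. Bst2 was at -0.02, -0.29 and -0.04 without Old D mouse 6, Old D mouse 11 and Young mouse 7, and at -0.20 without Old D mouse 11 and Young mouse 19 together. Isg15 was at 0.19 without Old D mouse 11, 0.01 without Young mouse 7 and 0.05 without both mice of high choroid plexus signal. For Old against Young mice Isg15 was at -0.04 without Old mouse 8 and -0.02 without Young mouse 19, with or without Old D mouse 11. Ifi211 passed the threshold in Old D against Old mice under 8 of 20 alternatives. For Old D against Old mice Isg15 was at -0.35 to 0.08 with single mice left out. Both filters on low values left out Ifit1, Isg15 and Irf7, and that above the median level also Ifit2 and Irf9, which then had no value. The cause of these changes was not tested beyond the mice and genes named. Each mouse gave 1 array and belonged to 1 group, so no paired analysis applied.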
